A study of Mus musculus with 8 samples.

Results

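CpG-dense differentially methylated regions are stretches of the mouse genome in which the methylation level differed between 2 pools of preadipocytes and in which CpG sites lay close together. They were chosen by CpG number and length, as the autosomal regions of the authors' deposited table with at least 3.5 CpGs per 100 bases. This rule took 375 of the 1782 regions on chromosomes 1 to 19, out of 1820 regions in all, and the remaining 1407 autosomal regions serve as the comparison. No methylation value entered this rule, but the authors had already listed every row as different between the pools and had set where each region starts and ends, which fixes its length and CpG number.

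A CpG is a cytosine followed by a guanine, the sequence at which mammalian DNA is mainly methylated. Most CpGs in a somatic genome are methylated and lie far apart, whereas CpG islands, the dense clusters found at many gene starts, are usually kept free of methylation. DNA methyltransferases add the methyl group, and the TET enzymes, of which TET3 is one, oxidise it and so open a route to its removal. Loss of TET enzymes is known from other cells mainly for gains of methylation at regulatory elements such as enhancers.

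Whole genome bisulfite sequencing (WGBS), in which unmethylated cytosines are read as thymines, was done on preadipocytes, the fat cell precursors. The cells came from inguinal white fat (iWAT) of male mice fed a high fat diet for 14 weeks. One pool came from Tet3 f/f mice, which carry floxed Tet3 alleles, and the other from mice labelled Pdgfra-Tet3 KO. Sorting kept PDGFRa+ cells without CD45, CD31 or TER119 in both pools. The labels state neither the number or age of the animals in a pool nor the transgene that drives the deletion. The table names the pools only as a first and a second group, so the sign of a difference is given as the table has it and is not tied to the knockout. With 1 pool per genotype there is no replicate, no test was made, and each value describes these pools. The table gives no read coverage, so the depth behind each difference is unknown.

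The label of the cells can be checked only in RNA, which came from 6 other libraries (3 Tet3 f/f and 3 Pdgfra-Tet3 KO) of mice on the diet for 6 weeks, with 1831218 to 2374978 counts each. All 8 stromal markers were detected (CPM are counts scaled to the library total). Their summed level was 41887 to 43532 CPM in Tet3 f/f and 46314 to 55661 CPM in Pdgfra-Tet3 KO, most of it from Col1a1 and Dcn. Single markers went different ways. Col1a1, Cd34 and Ly6a were higher in every Pdgfra-Tet3 KO library, Pdgfra and Pdgfrb were lower, and Dpp4, Icam1 and Dcn overlapped. Pdgfrb was at 273 to 325 CPM in Tet3 f/f and 143 to 166 CPM in Pdgfra-Tet3 KO. Pdgfra, which encodes the receptor used in the sort, was at 622 to 665 CPM in Tet3 f/f and 394 to 481 CPM in Pdgfra-Tet3 KO. The 5 immune markers summed to at most 3.06 CPM, and Ptprc, which encodes CD45, had 0 counts in all 6 libraries. Of the 3 endothelial markers Pecam1, which encodes CD31, was at most 2.997 CPM, while Tek made up nearly all of the sum of 125 to 170 CPM. Of the red blood cell markers reported, Hba-a1, an alpha globin gene with a near-identical copy, reached 22.3 CPM in Pdgfra-Tet3 KO and 4.27 CPM in Tet3 f/f, and Alas2 was at most 0.496 CPM. Of the mature adipocyte markers Plin1 and Cidec were at 0 and Adipoq was at most 0.949 CPM. The part of other cells in the methylation differences was not tested.

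CpG-dense regions were short and held many CpGs, as the rule favours. Their length had a median of 279 bases, with quartiles of 240 and 351.5 and a range of 201 to 1531. The other regions had a median length of 353 bases and a range of 201 to 1745. The median number of CpGs was 12, with a range of 8 to 70, against 8 and a range of 6 to 38 in the other regions. No region of the table is shorter than 201 bases or has fewer than 6 CpGs, and at that length a region must hold at least 8 CpGs to reach the density. Accordingly, 531 of the other regions (37.7%) had fewer CpGs than any dense one. The dense regions made up 21.0% of the autosomal regions and 17.7% of their bases (116164 bases) but 27.8% of their CpGs (5018 CpGs). On average 1 CpG came every 23.1 bases in the dense regions and every 41.6 bases in the others.

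**Figure D1:**
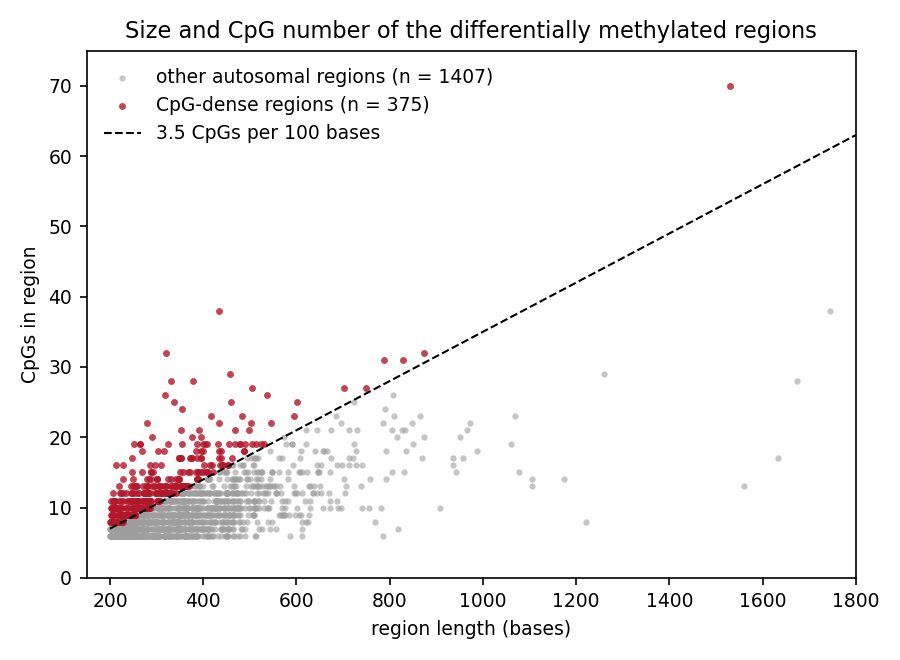
Number of CpGs against length in bases for the 375 CpG-dense (red) and 1407 other (grey) autosomal regions, 1 point per region, with the dashed line at 3.5 CpGs per 100 bases. Most dense regions lie just above the line, and 1 region with 70 CpGs stands apart from the rest at the top.

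Density itself ran from 3.51 to 10 CpGs per 100 bases, with a median of 4.02. Most members lay near the lower end. There were 184 regions below 4, 133 from 4 to below 5, 47 from 5 to below 7 and 11 at 7 or more. In the authors' deposited table the 5 regions just inside the threshold (3.51 to 3.52 CpGs per 100 bases) had absolute differences of 0.389, 0.332, 0.364, 0.388 and 0.415 in mean methylation, as fractions. In the same authors' deposited table the 5 just outside (3.493 to 3.497) had 0.421, 0.339, 0.353, 0.398 and 0.418. The values on either side of the threshold overlapped.

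Almost all dense regions differed in the same direction. The difference was negative in 370 of 375 (98.7%), against a background of 99.6% over all autosomal regions, so the direction of the dense regions is that of the table as a whole. It was positive in 5 dense regions (1.33%) and in 2 of the 1407 others (0.142%). Weighted by their CpGs, the dense regions had a mean difference of -0.373 and the others one of -0.418.

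**Figure D2:**
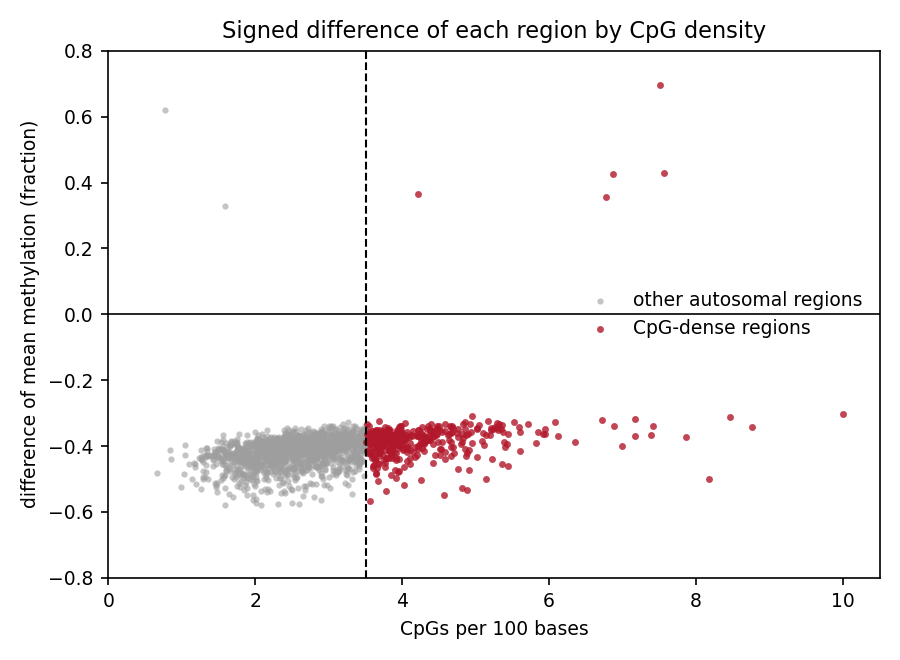
Signed difference of mean methylation between the groups, as a fraction, against CpGs per 100 bases for CpG-dense (red) and other (grey) autosomal regions, 1 point per region, with the dashed line at the density of 3.5. All but 7 regions are negative, and of the 7 above 0 the 5 dense ones have densities of 4.21 to 7.57.

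The difference between the groups was smaller in size in the dense regions. The median absolute difference was 0.381 (quartiles 0.360 and 0.409) against 0.414 (quartiles 0.389 and 0.444) in the other regions, a gap of -0.032 between the medians, with quartile ranges that overlapped. A difference of 0.4 or more was found in 118 dense regions (31.5%) and in 899 others (63.9%). At the low end, 54 dense regions (14.4%) and 26 others (1.85%) differed by less than 0.35. The smallest difference in the authors' deposited table was 0.303 in a dense region and 0.327 among the others. How the authors' caller weighed CpG number and density is not stated, and its part in this gap was not tested. The mean levels of the 2 groups were not used, so the levels between which each difference lies are not known here.

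The decline ran along most of the scale of density and was not a step at 3.5. The median difference was 0.439 in the 59 regions with fewer than 1.5 CpGs per 100 bases, 0.436 from 1.5, 0.416 from 2, 0.406 from 2.5 and 0.396 from 3 to below 3.5. Within the dense set it was 0.386 from 3.5, 0.377 from 4 and 0.357 from 5 to below 7. The 11 densest regions had 0.366, and 0.342 when the 2 of them with a positive difference were left out.

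The smaller difference was also seen within classes of CpG number and, separately, within classes of length. By the definition of density, dense regions are shorter at a given CpG number and hold more CpGs at a given length. Density is set by CpG number and length, so a class that fixed both would leave no dense and other regions to compare. The classes therefore cannot separate density from CpG number and length. Among regions with 8 or 9 CpGs the median difference was 0.382 in 75 dense and 0.413 in 364 other regions. With 10 or 11 CpGs it was 0.379 in 94 dense and 0.410 in 246 others, and with 12 to 14 CpGs 0.382 in 99 and 0.409 in 157. It was 0.386 and 0.418 with 15 to 19 CpGs, and 0.360 and 0.406 with 20 or more. Dense regions had the lower median in all 5 classes of CpG number. The same held in the 4 classes of length, from 0.377 against 0.397 in regions of up to 250 bases to 0.396 against 0.426 above 400 bases.

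**Figure D3:**
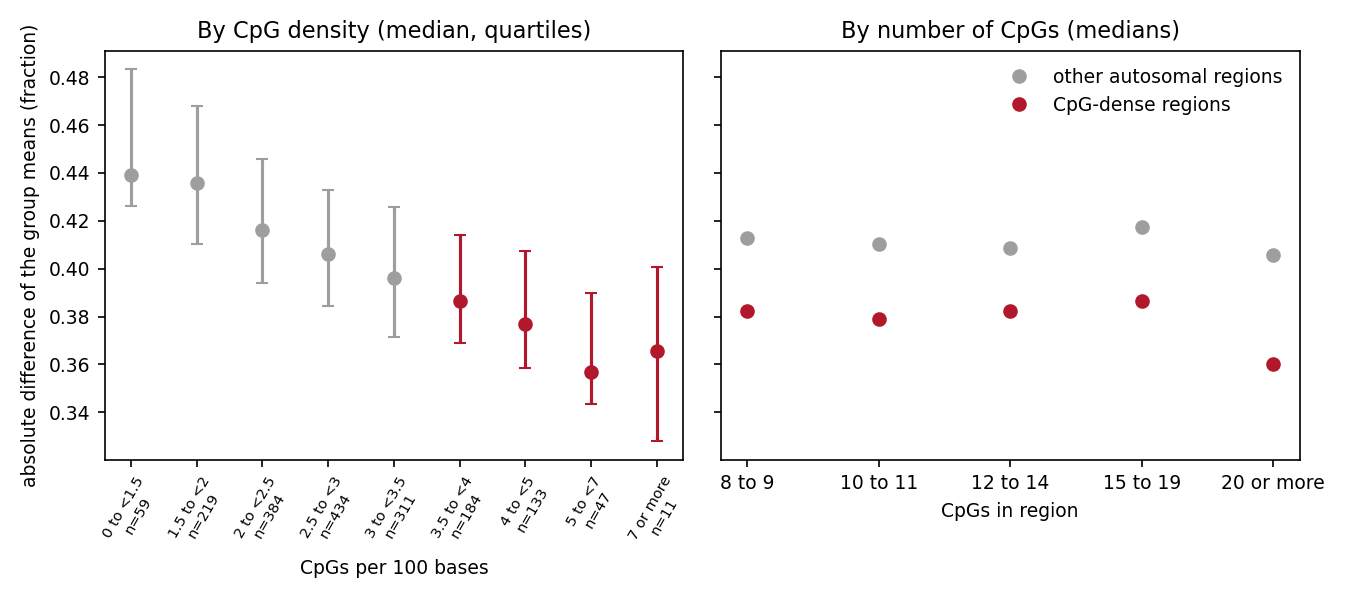
Absolute difference of mean methylation, as a fraction, by CpGs per 100 bases (left, medians with quartiles as bars, dense classes in red) and by number of CpGs in the region (right, medians of dense regions in red and of others in grey). The median falls from 0.439 in the sparsest class to 0.357 in the class from 5 to below 7, and the red points lie below the grey ones in every class of CpG number; the vertical axis does not start at 0.

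The test score of the table went the other way. The authors' deposited table gives each region a signed sum of a test statistic over its CpGs, on a scale it does not explain. Divided by the number of CpGs, its size had a median of 6.87 in the dense regions (quartiles 6.37 and 7.497) and 6.31 in the others (quartiles 5.88 and 6.84). In regions with 8 or 9 CpGs the medians were 6.42 and 6.28, and with 10 or 11 they were 6.42 and 6.51. They were 6.93 and 6.80 with 12 to 14 CpGs, 7.55 and 7.29 with 15 to 19, and 8.28 and 7.35 with 20 or more. A smaller difference in the dense regions came with a score per CpG that was higher over all regions, but lower in 1 of the 5 classes of CpG number.

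The regions named next are those with the largest differences in each direction, the most CpGs and the greatest length. Their positions are as the authors' deposited table gives them, and no source used here states the build of these coordinates. The submitters' processing notes name GRCm39, mm39 and mm10 without a role. Promoter sequences of GRCm38.p6, the assembly also known as mm10, covered 6 region starts and 4 region ends. Of these, 0 of 6 starts and 0 of 4 ends lay on a CG dinucleotide, or 2 of 6 and 1 of 4 when positions were counted from 0. Of all bases in these sequences, 11.4% lay in a CG for the starts and 13.5% for the ends. A region that begins and ends at its own CpGs would place every start and end on a CG. No gene, exon, intron or sequence is therefore assigned to a region.

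The longest dense region was also the one with the most CpGs. In the authors' deposited table chr14:54533414-54534944 spans 1531 bases with 70 CpGs and has a difference of -0.549. Its summed score of -825 is the largest in size of all autosomal regions in the authors' deposited table. It stood alone, with the nearest other autosomal region 1444060 bases away.

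The most negative difference of a dense region was -0.567 at chr2:60627343-60627567, over 8 CpGs in the authors' deposited table. After it and the chromosome 14 region came chr6:52651656-52651999, with -0.537 over 13 CpGs in the authors' deposited table. In the same authors' deposited table chr16:17520648-17520934 had -0.535 over 14 CpGs and chr19:46471540-46471892 had -0.526 over 17 CpGs. These 5 regions lie on 5 chromosomes, and their densities range from 3.56 to 4.88. A difference of 0.5 or more in either direction was found in 10 of the 375 dense regions (2.67%) and in 71 of the others (5.05%).

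The 5 dense regions with a positive difference were mostly very dense. In the authors' deposited table chr6:104241112-104241324 had 0.696 over 16 CpGs, the largest absolute difference of any autosomal region. The region chr13:97985650-97985900 had 0.430 over 19 CpGs, and chr10:59218931-59219221 had 0.425 over 20 CpGs, in the authors' deposited table. The authors' deposited table also has chr16:36590076-36590574 at 0.366 over 21 CpGs and chr7:92436900-92437253 at 0.357 over 24 CpGs. Their density had a median of 6.87 CpGs per 100 bases, while the 370 negative ones had a median of 4.01. By the density classes used above, 0 of 184 dense regions below 4 CpGs per 100 bases were positive and 1 of 133 from 4 to below 5. From 5 to below 7 it was 2 of 47, and at 7 or more 2 of 11. Among the other regions, the 2 positive ones had densities of 0.764 and 1.59 and differences of 0.619 and 0.330 in the authors' deposited table, so positive differences occurred toward both ends of the density scale.

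Some of the members richest in CpGs had differences at the low end of the table. In the authors' deposited table chr5:96121624-96121943, the densest region with 32 CpGs in 320 bases, had -0.303, the smallest difference of all in size. The region with the second most CpGs, chr5:111568078-111568511, had -0.342 over 38 CpGs in 434 bases in the authors' deposited table. The long regions were mostly of modest density. The authors' deposited table has chr15:99476834-99477707 at -0.467 over 874 bases and 32 CpGs, and chr11:100945708-100946536 at -0.382 over 829 bases and 31 CpGs. The remaining long ones in the authors' deposited table were chr10:79772403-79773189, at -0.354 over 787 bases, and chr8:11028194-11028942, at -0.459 over 749 bases. Only 16 dense regions (4.27%) were 500 bases or longer, against 222 of the others (15.8%).

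Dense regions occurred on all 19 autosomes, from 10 on chromosomes 13 and 14 to 30 on chromosomes 5 and 11. Their share of a chromosome's regions was lowest on chromosome 9, at 11 of 92 (11.96%, exact binomial 95% interval 6.12% to 20.4%). It was highest on chromosome 15, at 25 of 90 (27.8%, interval 18.9% to 38.2%). Next came chromosome 5 (30 of 111), chromosome 7 (27 of 100), chromosome 17 (19 of 72) and chromosome 8 (28 of 107), with shares of 26.2% to 27.03%. The intervals cover counting error only and treat regions as independent. The interval of 18 chromosomes contained the autosomal share of 21.0%, and that of chromosome 9 lay below it. Among 19 intervals of 95%, 1 can miss the share through counting error alone, so nothing particular to chromosome 9 is read from this. The median difference was smaller in dense than in other regions on 17 of the 19 chromosomes. The exceptions were chromosome 9, with 0.418 against 0.403, and chromosome 13, with 0.422 against 0.406, which hold 11 and 10 dense regions.

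**Figure D4:**
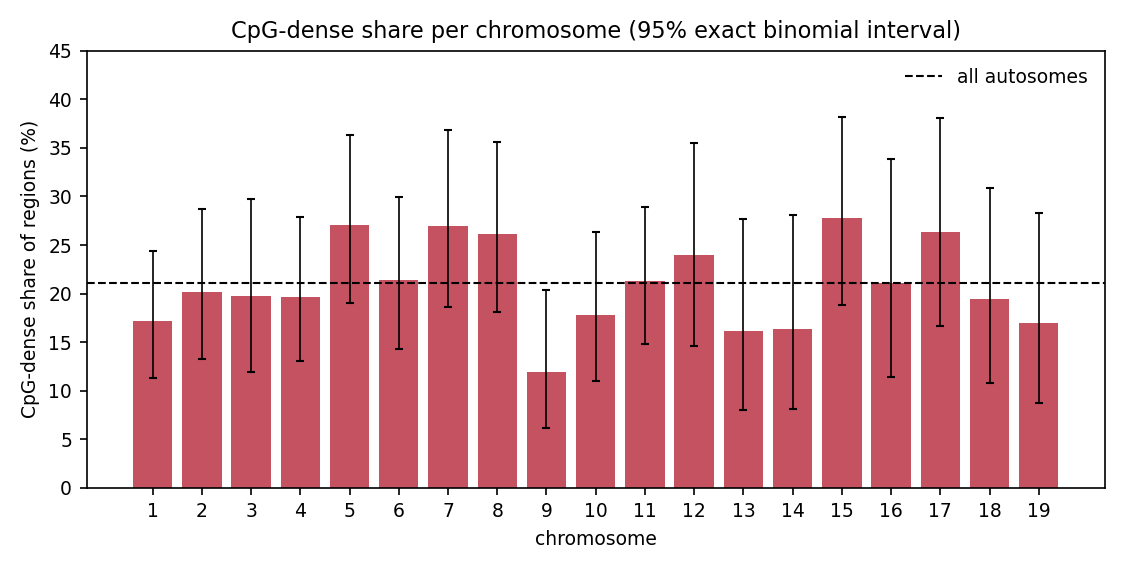
CpG-dense regions as a percentage of all regions listed on each autosome, with exact binomial 95% intervals as bars and the share over all autosomes, 21.0%, as a dashed line. Chromosome 9, at 11.96%, is the one chromosome whose interval lies below the line, and chromosome 15, at 27.8%, is the highest.

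The nearest other region of the table was at a median distance of 172752 bases from a dense region and 139547 bases from one of the others. Another region lay within 10000 bases of 47 dense regions (12.5%) and of 189 others (13.4%), and within 2000 bases of 19 (5.07%) and 72 (5.12%). A dense neighbour within 10000 bases was found for 7 dense regions (1.87%) and for 45 others (3.20%), and within 2000 bases for 4 dense regions and 15 others (1.07% of each). The 7 dense regions formed 4 adjacent pairs, described here because of their position and chosen after their values were seen. In all 4 pairs both members were negative, as were nearly all dense regions, and their differences lay within 0.05 of each other. The differences of all 370 negative dense regions had an SD of 0.042, so nothing particular to neighbours is read from this.

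On chromosome 11 a chain of 3 dense regions ran from base 107266657 to base 107270816. In the authors' deposited table they had -0.361 over 10 CpGs, -0.410 over 12 CpGs and -0.408 over 15 CpGs. On chromosome 8, chr8:85431454-85431989 and chr8:85433198-85433528 were 1209 bases apart, with -0.349 over 26 CpGs and -0.311 over 28 CpGs in the authors' deposited table. On chromosome 6, chr6:84088263-84088513 and chr6:84096879-84097249 were 8366 bases apart, with -0.356 over 9 CpGs and -0.353 over 17 CpGs in the authors' deposited table. The densities of neighbours ranged from nearly alike on chromosome 11 (3.56 and 3.67) to 4.85 and 8.46 on chromosome 8.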

How the data were processed

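WGBS covered 1 pool per genotype and RNA-seq 3 libraries per genotype, grouped by the sample labels. Per the file headers, the authors' deposited region table gives length, number of CpGs, a difference of mean methylation and a score summed over CpGs. Its 2 columns of mean levels per group name no sample and were not used, so no level and no sign by genotype is given. The caller, its thresholds, and whether a CpG counts once or per strand are not stated. The submitters' processing notes include Bismark 0.23.0. Raw read counts per gene, deposited without normalization, were used only for markers.

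Density was 100 times the number of CpGs over length. Summaries used pandas 2.3.3 and exact intervals scipy 1.17.1, and the script was checked on a simulated table. Members, classes and named regions were chosen with earlier results of these data known. The rule named the 5 regions of largest difference in each direction, with the most CpGs and the greatest length. Distances to gene starts, gene lists beside regions and the RNA of neighbouring genes were not examined, because promoter sequences from RefSeq (GRCm38.p6) did not settle the build. Read depth per region is unknown. One marker gene is not reported here.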

Additional observations from a re-analysis of the deposited data

How the results depend on the processing

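No result has a test, so a median or share is said to have moved where it left the exact 95% interval, over regions, of the value given above, and a count where it changed by over 1.5 times. Of 40 recomputed values 32 stayed and 8 moved, and these 8 all came from another density threshold. The count of 32 does not measure stability, because many of these values could not change under their setting, as given below. At 3.0 CpGs per 100 bases there were 686 dense regions, with a median absolute difference of 0.387 and 49.5% as the highest share on a chromosome. At 4.5 there were 108, with a median of 14.5 CpGs, a median absolute difference of 0.363, a positive difference in 3.70%, and 9.84% as the highest share on a chromosome. At both thresholds dense regions had a smaller median difference than the rest, which stood at 0.419 and 0.409. A minimum difference of 0.3, a minimum of 5 CpGs and length taken as end minus start plus 1 left all values as they were, because every row already met them. Including the sex chromosomes gave 389 dense regions. Apart from chromosome Y, with its 1 region, the highest share was then 35.1% on chromosome X in place of 27.8% on chromosome 15. It counts as stayed because the interval of chromosome 15 is wide (18.9% to 38.2%). A minimum of 8 CpGs in both sets, chosen after seeing the data, could change only the other regions, because every dense region met it. It left the others at a median difference of 0.411. Their median number of CpGs rose from 8 to 10 (12 in dense regions) and their median length from 353 to 397 bases. Leaving out positive differences, also chosen after seeing the data, gave median differences of 0.381 in dense regions and 0.414 in the others. The lower group mean, gene starts and the RNA alternatives were not run. No paired analysis was possible because no result comes from a test and the region table has 1 pool per genotype. The unknown coverage limits how far any single region can be read.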

Other observations

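The sex chromosomes, which the rule leaves out, held 38 regions. On chromosome X 13 of 37 regions (35.1%, exact binomial 95% interval 20.2% to 52.5%, for counting error only) reached 3.5 CpGs per 100 bases, against 21.0% (interval 19.2% to 23.01%) on the autosomes. These 13 had a median density of 5.97 CpGs per 100 bases and a median absolute difference of 0.419, and the 24 sparser X regions had 0.436. The difference was positive in 1 of the 13 dense X regions and in 0 of the 24 others. The single region of chromosome Y, with 12 CpGs in 272 bases, had 0.479 in the authors' deposited table.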
